A study of Mus musculus with 12 samples.

Results

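The Myc and Max network is a group of transcription factors that share a basic helix-loop-helix leucine zipper domain. The members measured here were Myc, Mycn, Max, Mxd1, Mxd3, Mxd4, Mxi1, Mnt and Mlx, found by symbol in the probe annotation and read from the probe set that names no other gene and has the highest mean over all arrays. They are 9 of 19938 genes named on the array. All 9 had a mean above the low value filter, which left 14993 genes to test, and each was measured by 1 probe set.

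MAX is the shared partner of the network. As a heterodimer with MAX, the MYC proteins bind E-box DNA, whose best known form is CACGTG, and activate genes of ribosome production, nucleotide synthesis, glycolysis and cell cycle entry. The MXD proteins, MXI1 and MNT bind MAX as well and recruit SIN3 and histone deacetylases to repress E-box genes, while MLX is a MAX-like protein that pairs with the glucose sensors MONDOA and ChREBP and also with MNT and some MXD proteins. In the B lineage Myc is induced when a cell is activated by antigen, and BLIMP1, encoded by Prdm1, represses it as plasma cells form.

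Transcripts were profiled on 12 Affymetrix mouse arrays, 1 per sample, in plasma cells from bone marrow, 6 samples labelled Zbtb32 -/- (written Zbtb32-/- below) and 6 labelled Zbtb32 +/+ (wild type). Donor mice of either genotype, all carrying CD45.2, had been immunised with NP-CGG, a hapten on a carrier protein, and their splenocytes were moved into CD45.1 recipients. After a further challenge with NP-CGG, NP-binding cells that were CD138+ and CD45.2+ and lacked B220, Ly6g, CD11b and CD45.1 were sorted on day 7. The series text calls the 6 samples of a genotype biological replicates. Mouse age, the deleted stretch of Zbtb32 and the number of mice behind a sample were not given in the sources used here. The whole donor splenocyte pool was transferred, so donor cells other than B cells also lacked Zbtb32, and the recipients kept their own cells. Zbtb32 encodes a BTB zinc finger transcription factor.

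All values below are log2 values made with RMA, on which a difference of 1 is a 2-fold change, and the number of arrays limits their precision. The array medians spanned 6.28 to 6.43, and pairs of arrays correlated at 0.914 to 0.984. The probe set of Zbtb32 averaged 6.56 ± 0.10 in Zbtb32-/- and 6.67 ± 0.16 in wild-type arrays (SD, n = 6 each), and since the deleted stretch is unknown here it cannot check the labels. The plasma cell markers Jchain and Xbp1 had means of 13.65 and 13.02 over the 12 arrays, which fits the label of the sort. Neutrophil transcripts were high too, although the gate removed Ly6g+ and CD11b+ cells: S100a9 and Ngp had means of 12.55 and 12.25. The mean over 20 neutrophil genes ran from 8.50 to 11.75 in Zbtb32-/- arrays and from 7.63 to 10.41 in wild-type arrays, and the mean over 17 plasma cell genes ran from 10.49 to 11.12 in Zbtb32-/- arrays and from 10.43 to 11.16 in wild-type arrays. In such bulk samples fewer cells of a type and less RNA per cell cannot be told apart. Replicates 4 to 6 also differed from replicates 1 to 3. The labels name no batch, this grouping is known from earlier work on these data, and each set holds 3 arrays of each genotype. Since the grouping was known from these same arrays, p-values between the sets describe it and are no independent test of it.

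Promoter windows from 250 bases before to 50 bases after an annotated transcript start were found in the RefSeq table (mouse build GRCm38.p6) for 8 members, Myc not among them. Each was searched for CACGTG, which reads the same on both strands. It was present in 4 of these 8 members, Max, Mxd4, Mnt and Mlx, and absent from the windows of Mycn, Mxd1, Mxd3 and Mxi1. Of all 27025 genes with a window, 8.09% held it, and of all 32851 windows, 7.15%. Of the tested genes with a window, 10.9% held it. The 4 stretches are shown because they carry the sequence that the encoded proteins and their partners recognise. They run from 240 bases before to 10 bases after the start, 5′ to 3′ on the gene's strand, with CACGTG in capitals. Max lies on the minus strand at chr12:76962239-76962488, Mxd4 on the minus strand at chr5:34187701-34187950, Mnt on the plus strand at chr11:74830684-74830933 and Mlx on the plus strand at chr11:101087050-101087299.
Max: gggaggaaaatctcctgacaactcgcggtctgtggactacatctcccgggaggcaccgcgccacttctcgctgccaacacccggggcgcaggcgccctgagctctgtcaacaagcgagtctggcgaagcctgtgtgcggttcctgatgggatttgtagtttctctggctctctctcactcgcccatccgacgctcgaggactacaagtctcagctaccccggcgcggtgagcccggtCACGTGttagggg
Mxd4: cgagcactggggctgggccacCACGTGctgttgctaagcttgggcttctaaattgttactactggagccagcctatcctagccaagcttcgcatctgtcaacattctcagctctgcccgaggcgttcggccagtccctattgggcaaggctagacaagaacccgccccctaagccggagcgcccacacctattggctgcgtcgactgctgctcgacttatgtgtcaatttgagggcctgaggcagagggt
Mnt: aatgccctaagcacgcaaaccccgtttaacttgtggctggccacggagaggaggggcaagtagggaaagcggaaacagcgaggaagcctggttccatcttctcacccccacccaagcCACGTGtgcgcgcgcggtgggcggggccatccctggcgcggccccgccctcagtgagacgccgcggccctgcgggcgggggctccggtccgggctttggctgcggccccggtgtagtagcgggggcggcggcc
Mlx: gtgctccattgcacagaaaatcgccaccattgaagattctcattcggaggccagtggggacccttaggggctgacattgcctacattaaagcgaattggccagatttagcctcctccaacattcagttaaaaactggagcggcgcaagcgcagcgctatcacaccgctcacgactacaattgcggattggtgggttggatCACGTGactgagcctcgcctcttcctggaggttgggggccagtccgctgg
In Max the motif begins 3 bases before the annotated start and crosses it, and in Mlx it begins 40 bases before. In Mnt it begins 123 bases and in Mxd4 219 bases before the start. A match describes these letters and does not show that a factor was bound there in plasma cells.

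The first comparison asks how network transcripts differed between Zbtb32-/- and wild-type plasma cells. None of the 9 members passed an adjusted p of 0.05 with limma, and none had an unadjusted p under 0.05. Over all 14993 genes, 0% passed after adjustment and 4.28% had an unadjusted p under 0.05. For all 9 members the genotypes overlapped, as they did for all but 0.153% of the genes tested. The difference was positive for 6 members and negative for 3, with a median of 0.07, against 0.01 over all genes tested, of which 52.9% were positive. Positive differences were more frequent among well expressed genes: of 3698 genes between the lower and upper quartile of the members' levels, 69.0% were positive, with a median of 0.09.

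Myc, the activator of the network, had the largest estimated difference and did not pass. In Zbtb32-/- arrays its values were 9.06, 9.29, 9.31, 9.45, 8.68 and 8.41, with a median of 9.18. In wild-type arrays they were 9.17, 7.87, 9.24, 8.31, 8.45 and 8.17, with a median of 8.38. Zbtb32-/- replicates 1 to 4 and wild-type replicates 1 and 3 lay above 9, and every other array was lower. The mean was 9.03 ± 0.41 in Zbtb32-/- and 8.53 ± 0.55 in wild-type arrays (SD, n = 6 each), a difference of 0.50 (SE 0.26, 95% interval -0.05 to 1.05), or 1.41-fold with an interval of 0.966 to 2.07. The limma p was 0.0714 before and 0.933 after adjustment. Of the 6 Zbtb32-/- arrays, 5 exceeded the wild-type mean and 3 exceeded the highest wild-type array. Replicates 4 to 6 alone gave a difference of 0.54 and replicates 1 to 3 alone gave 0.46. It was 0.24 without wild-type replicates 2 and 6, the 2 arrays with the lowest Myc, whose removal can only shrink this difference.

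Mycn, the relative of Myc best known from embryonic tissue and neuroblastoma, varied little. It ran from 5.92 to 6.54 with a median of 6.23 in Zbtb32-/- arrays, and from 6.01 to 6.38 with a median of 6.27 in wild-type arrays. The difference was -0.01 (SE 0.10, interval -0.23 to 0.20), and its SD over the 12 arrays lay at percentile 18.4 of the genes tested.

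Max, the obligate partner, ran from 8.06 to 9.15 with a median of 8.33 in Zbtb32-/- arrays, and from 8.15 to 9.03 with a median of 8.43 in wild-type arrays. The difference was -0.10 (SE 0.20, interval -0.53 to 0.33). Zbtb32-/- replicate 6 was the highest of all 12 arrays at 9.15, and without it the difference was -0.25. The SE of Max was thus larger than its difference, as it was for all members other than Myc.

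**Figure D1:**
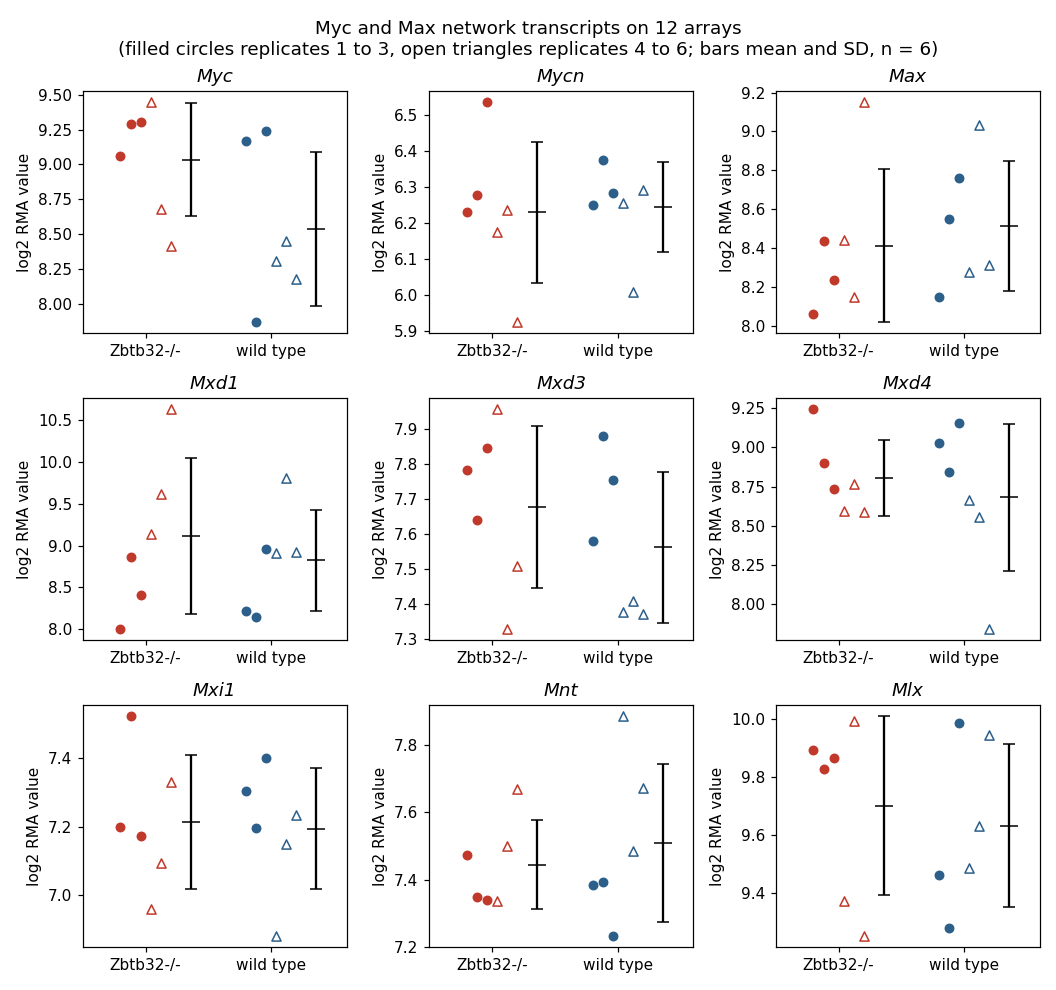
Log2 RMA value of the 9 network transcripts on each array, Zbtb32-/- left and wild type right, with filled circles for replicates 1 to 3, open triangles for replicates 4 to 6 and bars for the mean and SD (n = 6 each); the vertical axes do not start at 0. The genotypes overlap in every panel, and Mxd1 reaches 10.63 in Zbtb32-/- replicate 6.

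The MXD family represses MYC target genes and is linked to differentiation. Mxd1 ran from 8.0 to 10.63 with a median of 9.0 in Zbtb32-/- arrays, and from 8.15 to 9.80 with a median of 8.92 in wild-type arrays. Its difference was 0.28 (SE 0.40, interval -0.57 to 1.13), and -0.02 without Zbtb32-/- replicate 6. Highest and lowest array were 6.19-fold apart, and the SD of Mxd1 over 12 arrays lay at percentile 97.8 of the genes tested. The next widest member was Myc, with a 2.99-fold range and percentile 92.4.

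Mxd3, which is known for expression in proliferating cells, ran from 7.33 to 7.96 in Zbtb32-/- and from 7.37 to 7.88 in wild-type arrays, a difference of 0.12 (SE 0.14). Mxd4 ran from 8.59 to 9.24 in Zbtb32-/- and from 7.84 to 9.15 in wild-type arrays, a difference of 0.12 (SE 0.20). The lowest Mxd4 value belonged to wild-type replicate 6, and without that array the difference was -0.04. Mxi1, the MXD family member first described as an interactor of MAX, ran from 6.96 to 7.52 in Zbtb32-/- and from 6.88 to 7.40 in wild-type arrays, a difference of 0.02 (SE 0.12).

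Mnt, a broadly expressed repressor that opposes MYC at shared targets, ran from 7.34 to 7.67 with a median of 7.41 in Zbtb32-/- arrays, and from 7.23 to 7.88 with a median of 7.44 in wild-type arrays. The difference was -0.06 (SE 0.12, interval -0.33 to 0.20). Mlx ran from 9.25 to 9.99 with a median of 9.85 in Zbtb32-/- arrays, and from 9.28 to 9.98 with a median of 9.56 in wild-type arrays, a difference of 0.07 (SE 0.17). The ranges of Mlx in both genotypes were nearly the same.

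**Figure D2:**
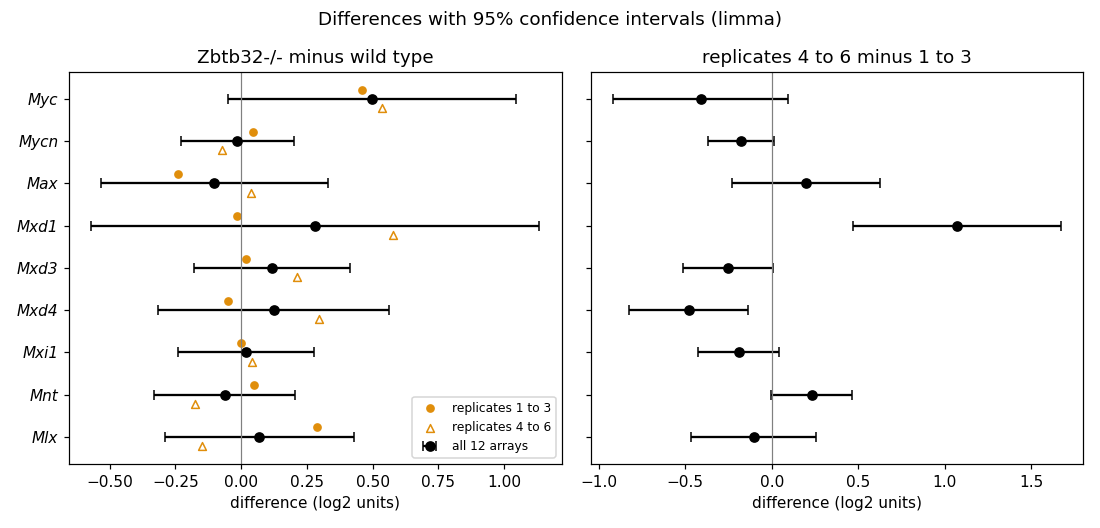
Differences of the 9 members in log2 units with 95% confidence intervals from limma, Zbtb32-/- minus wild type on the left (orange: each replicate set alone) and replicates 4 to 6 minus 1 to 3 on the right. Every genotype interval includes 0, and on the right that of Mxd1 lies from 0.47 to 1.67.

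Between the replicate sets Mxd1 was the only member that passed. It was higher in replicates 4 to 6, where it ran from 8.91 to 10.63 with a median of 9.38, than in replicates 1 to 3, where it ran from 8.0 to 8.96 with a median of 8.31. The arrays with the 3 highest values, Zbtb32-/- replicates 6 and 5 and wild-type replicate 5, all belonged to replicates 4 to 6, and the sets overlapped by a small margin. The sets overlapped for all 9 members, as they did for all but 3.9% of the genes tested. The mean was 9.50 ± 0.66 against 8.43 ± 0.39 (SD, n = 6 each), a difference of 1.07 (SE 0.28, interval 0.47 to 1.67), or 2.10-fold, with genotype in the limma model (adjusted p = 0.0407). All 6 arrays of replicates 4 to 6 lay above the mean of replicates 1 to 3. Of the genes tested 6.52% passed in this comparison, and 2.05% passed and were higher in replicates 4 to 6, so 1 of 9 members is little to read beside that background. The call was lost on leaving out any 1 of 9 of the 12 arrays, with adjusted p up to 0.0837. It held on leaving out Zbtb32-/- replicate 4 or either of wild-type replicates 3 and 6.

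Markers of neutrophils and of monocytes and macrophages moved with the same arrays. Of 20 neutrophil genes, 9 passed as higher in replicates 4 to 6 and all 20 had a positive difference, with a median of 1.37. The mean over these genes ran from 9.30 to 11.75 in replicates 4 to 6 and from 7.63 to 10.06 in replicates 1 to 3. Of 17 monocyte and macrophage genes, 5 passed as higher in replicates 4 to 6, with a median of 0.75. Of 18 B cell genes 13 had a positive difference, with a median of 0.40, and 1 passed as higher. Other lists did not rise alike. Of 15 T and NK cell genes 12 had a positive difference, with a median of 0.23, and 0 passed. Of 12 erythroid genes 11 were negative, with a median of -0.20, and 0 passed. Of 17 plasma cell genes 16 were negative, with a median of -0.31, and 4 passed as lower. Of 1184 genes between 9.54 and 12.23, the middle levels of the plasma cell list, 79.9% were negative and 12.3% passed as lower. The covariate for other cells was the mean over the neutrophil, monocyte and macrophage, erythroid, and T and NK cell genes together. It left out the B cell genes. With it the Mxd1 difference was 0.56 (limma adjusted p = 0.342), and the calls over all genes came to 27, against 977 without it. The part of such cells in the Mxd1 difference was not tested beyond this fit.

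The other 8 members did not pass between the sets. Mxd4 differed by -0.48 (SE 0.16, adjusted p = 0.0849 with limma), with all 6 arrays of replicates 4 to 6 below the mean of replicates 1 to 3. Mycn differed by -0.18 (SE 0.09, adjusted p = 0.230 with limma), likewise with all 6 arrays below that mean. Myc differed by -0.41 (SE 0.23, adjusted p = 0.290), Mxd3 by -0.25 (SE 0.12, adjusted p = 0.202) and Mnt by 0.23 (SE 0.11, adjusted p = 0.197). At an unadjusted p under 0.05 stood 2 members, Mxd1 and Mxd4, against 25.9% of all genes tested. In the interaction test, which asks whether the genotype difference itself differed between the sets, 0 members and 0% of the genes tested passed. For Myc the interaction was 0.07 (SE 0.49).

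Among the relatives of the network, 13 genes with a domain of the same kind or a shared partner, 12 were tested. Their genotype difference was positive for 4 and negative for 8, with a median of -0.07, against 53.5% positive and a median of 0.01 over 4623 genes of like level (here and below, genes between the quartiles of a list's own levels). None passed, and none had an unadjusted p under 0.05. Mycl, the remaining MYC gene, differed by 0.003 and Mga, a MAX partner that works as a repressor, by -0.12. The MLX partners Mlxip, which encodes MONDOA, and Mlxipl, which encodes ChREBP, differed by -0.21 (SE 0.17) and -0.10 (SE 0.09). Of the other E-box binders, Usf1 and Usf2 differed by -0.11 and -0.14, Tfe3 and Tfeb by -0.04 and 0.001, the clock gene Arntl by -0.12, Tcfl5 by -0.01 and the MYC target Tfap4 by 0.13.

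Bhlhe41, a transcriptional repressor of the circadian clock, differed by 0.25 (SE 0.25) between the genotypes. Between the replicate sets it had a mean of 6.67 in replicates 4 to 6 and 7.40 in replicates 1 to 3 (difference -0.73, SE 0.15, limma adjusted p = 0.0208). Of the 12 relatives 1 passed as lower in replicates 4 to 6, against 4.47% of the genes tested, so this count is little to read beside that background. Its close relative Bhlhe40 had a mean of 5.20, below the filter of 5.49, and was not tested.

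Genes known to be activated by MYC, a list of 82 of which 77 were tested, had small positive genotype differences. Their median was 0.13, 68 of 77 were positive, 8 had an unadjusted p under 0.05, all of them positive, and 0 passed after adjustment. Ran and Ranbp1, which drive nuclear transport, differed by 0.27 (SE 0.11) and 0.29 (SE 0.12), each with all 6 Zbtb32-/- arrays above the mean of wild type. Beside them must stand the genes of like level: of 2960 genes between 8.16 and 9.82, the middle levels of this list, 75.7% had a positive difference, with a median of 0.12, and 5.68% had an unadjusted p under 0.05. Between the replicate sets 61 of the 77 genes had a negative difference, against 73.1% of the genes of like level and 61.2% of all genes tested. As lower in replicates 4 to 6, 3 of the 77 passed, against 6.52% of the genes of like level and 4.47% of all, so the list shows no excess over its background.

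Genes repressed by MYC had genotype differences on both sides of 0. Of 17 tested, 6 were positive and 11 negative, with a median of -0.04 and 0 past the test, against 61.2% positive and a median of 0.05 over 5834 genes of like level. Cdkn1b, which encodes the cell cycle inhibitor p27, differed by -0.23 (SE 0.12), and Ndrg2 by -0.32 (SE 0.22). Of the 10 targets of MONDO proteins and MLX, 7 were positive, with a median of 0.07, against 57.3% positive and a median of 0.03 over 5332 genes of like level. The lipogenic gene Thrsp differed by -0.19 (SE 0.09) and the hexokinase gene Hk2 by 0.24 (SE 0.15).

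Cofactors of the network had 17 of 20 positive differences, with a median of 0.17, 3 at an unadjusted p under 0.05 and 0 past the test. Of 2207 genes of like level 71.2% were positive, with a median of 0.11, and 4.94% had an unadjusted p under 0.05. Actl6a, an actin-like subunit of chromatin remodellers, differed by 0.39 (SE 0.17), and Kat5, the acetyltransferase TIP60, by 0.36 (SE 0.16), each with all 6 Zbtb32-/- arrays above the mean of wild type. For Kat5, replicates 4 to 6 alone gave 0.66 and replicates 1 to 3 alone gave 0.07. Genes that control the stability of MYC protein had 14 of 19 positive differences, with a median of 0.12 and 0 past the test, close to the 71.7% positive and the median of 0.10 over 3865 genes of like level. Aurka, a mitotic kinase that shields N-MYC from degradation, differed by 0.33 (SE 0.16), and Fbxl14, an F-box protein, by 0.19 (SE 0.12).

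Of 27 regulators of Myc transcription, 17 had a positive difference, with a median of 0.08, and 0 passed, against 74.5% positive and a median of 0.12 over 2583 genes of like level. Bach2, a repressor of plasma cell differentiation, had the smallest p of this list, at 7.80 ± 0.40 in Zbtb32-/- and 8.50 ± 0.66 in wild-type arrays (SD, n = 6 each), a difference of -0.70 (SE 0.28, limma unadjusted p = 0.0271, adjusted p = 0.933). For Bach2, replicates 4 to 6 alone gave -1.02 and replicates 1 to 3 alone gave -0.38, and all 6 Zbtb32-/- arrays lay below the wild-type mean. The E2F family repressor E2f4 differed by 0.33 (SE 0.20). Prdm1, which is also in this list, differed by 0.28 (SE 0.27) and had a positive r of 0.75 with Myc over the 12 arrays. It is given for its role as a repressor of Myc, and this r was not tested. The mean over 18 B cell genes, a list that also holds Bach2, ran from 8.03 to 8.59 in Zbtb32-/- arrays and from 7.76 to 9.06 in wild-type arrays. Of these 18 genes 15 had a negative difference, with a median of -0.18, 3 had an unadjusted p under 0.05, all of them negative, and 0 passed. Of 5052 genes of like level 70.0% were positive, with a median of 0.10. The list's median was -0.53 over replicates 4 to 6 alone and 0.07 over replicates 1 to 3 alone. The part of B cells in the Bach2 difference was not tested.

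Whether the members varied together was asked over the 12 arrays, with permutation tests (two-sided, 100000 resamples) adjusted over all 36 pairs. Here and below the permutations moved arrays across genotypes and replicate sets, so a shift shared by both measures counts toward r and its p. By r or by rho 0 of 36 pairs passed, and 5 had an unadjusted p of r under 0.05. The largest r belonged to Mycn and Mxd1, at -0.77 (permutation p = 0.00383, adjusted p = 0.126) with a rho of -0.56 (p = 0.0632, adjusted p = 0.455). That r was -0.63 without Zbtb32-/- replicates 3 and 6, -0.90 within replicates 4 to 6 and -0.02 within replicates 1 to 3, so it did not hold within both sets. Mycn and Max behaved likewise, with an r of -0.66 (permutation p = 0.0191, adjusted p = 0.152), -0.96 within replicates 4 to 6 and 0.04 within replicates 1 to 3. Mxd3 and Mnt had an r of -0.69 (permutation p = 0.0105, adjusted p = 0.126) and a rho of -0.76 (p = 0.00531, adjusted p = 0.0956). Their r was -0.74 without Zbtb32-/- replicates 4 and 5, -0.61 within replicates 4 to 6 and 0.06 within replicates 1 to 3. Myc and Mnt, activator and repressor on the same partner, had a Pearson r of -0.64 (p = 0.0211, adjusted p = 0.152) and a Spearman rho of -0.80 (p = 0.00294, adjusted p = 0.0956). The r was -0.86 without wild-type replicates 2 and 6, -0.78 within replicates 4 to 6 and -0.31 within replicates 1 to 3. Max and Mxd1 had an r of 0.71 (permutation p = 0.00932, adjusted p = 0.126) and a rho of 0.62 (p = 0.0369, adjusted p = 0.332). That r was 0.18 without Zbtb32-/- replicate 6 and wild-type replicate 5, 0.80 within replicates 4 to 6, which hold both arrays, and 0.70 within replicates 1 to 3, which hold neither. The r over all 12 arrays thus depended on those arrays, while the r within each set stayed positive. With each set centred on its own mean it was 0.77.

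Each member was then set against the mean of 7 lists of cell type markers and mitosis genes, 63 relations in all. By r 3 passed, by rho 0, and 17 had an unadjusted p of r under 0.05. Mxd1 went with the neutrophil genes, at an r of 0.87 (permutation p = 0.00038, adjusted p = 0.0239) and a rho of 0.77 (p = 0.00489, adjusted p = 0.147). The r was 0.78 without Zbtb32-/- replicates 1 and 6, 0.82 within replicates 4 to 6 and 0.74 within replicates 1 to 3. It was 0.76 with each set centred on its own mean. Gene by gene, all 20 neutrophil genes had a positive r with Mxd1, with a median of 0.80, against -0.14 over all genes tested. With the monocyte and macrophage mean the r of Mxd1 was 0.77 (permutation p = 0.00323, adjusted p = 0.0509), and with the plasma cell mean it was -0.66 (p = 0.0192, adjusted p = 0.110).

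Myc went with the mean of the G2 phase and mitosis genes, at an r of 0.82 (permutation p = 0.00163, adjusted p = 0.0342) and a rho of 0.70 (p = 0.0141, adjusted p = 0.147). That r was 0.70 without wild-type replicates 2 and 6, 0.74 within replicates 4 to 6 and 0.90 within replicates 1 to 3. Relative to the mean of well expressed genes on each array, described below, it was 0.73 and no longer passed (permutation p = 0.00896, adjusted p = 0.0717). The mitosis list itself had 29 of 29 positive genotype differences, with a median of 0.32, 14 at an unadjusted p under 0.05 and 0 past the test, against 74.5% positive, a median of 0.12 and 5.75% over 3896 genes of like level. Its mean ran from 8.95 to 9.22 in Zbtb32-/- arrays and from 8.47 to 9.17 in wild-type arrays. Myc and this list both had higher means in Zbtb32-/- arrays, and their r within each genotype was not computed. With the erythroid mean the r of Myc was 0.62 (permutation p = 0.0298, adjusted p = 0.153), at -0.27 within replicates 4 to 6 and 0.86 within replicates 1 to 3. With the plasma cell mean it was 0.59 (permutation p = 0.0433, adjusted p = 0.170). Of 12 erythroid genes 11 had a positive genotype difference, with a median of 0.25 and 0 past the test. Of 2946 genes of like level 44.0% were positive, with a median of -0.02. The part of mitosis or erythroid genes in the Myc difference was not tested.

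Mnt went against the plasma cell mean, at an r of -0.84 (permutation p = 0.00111, adjusted p = 0.0342) and a rho of -0.64 (p = 0.0273, adjusted p = 0.215). The Mnt relation was -0.83 within replicates 4 to 6 and 0.07 within replicates 1 to 3, so it did not hold within both sets.

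**Figure D3:**
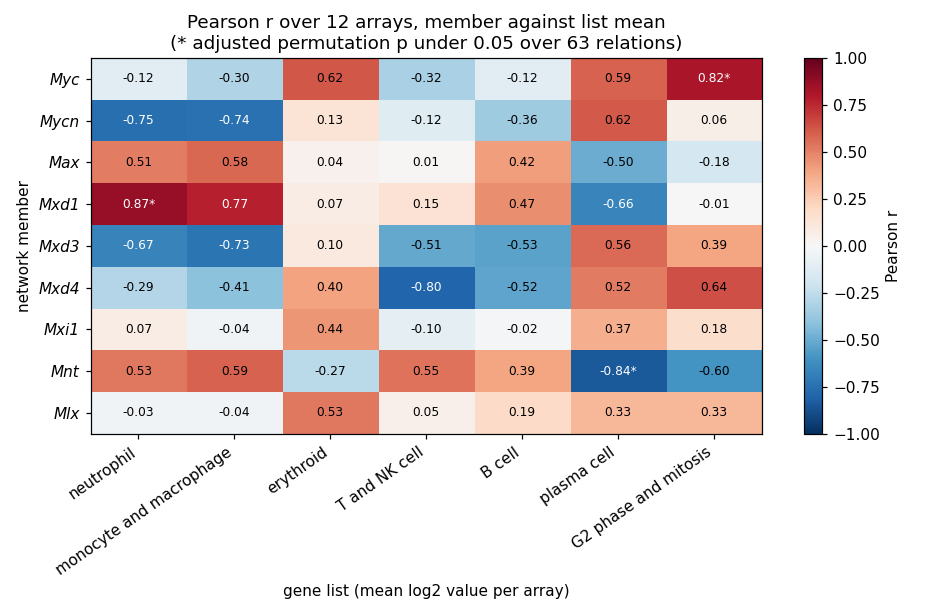
Pearson r over the 12 arrays between each network member (rows) and the mean log2 value of 7 gene lists (columns), red for positive and blue for negative, with an asterisk where the permutation p adjusted over 63 relations was under 0.05. The asterisks stand at Mxd1 with neutrophil genes (0.87), Myc with G2 phase and mitosis genes (0.82) and Mnt with plasma cell genes (-0.84).

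The mean of the MYC-activated genes split the arrays into separate clusters, 7 between 8.97 and 9.11 and 5 between 8.74 and 8.78, with a gap of 50.5% of the whole range. No correlation over all 12 arrays is therefore given for it, and the smaller cluster has too few arrays. Within the 7 arrays, Zbtb32-/- replicates 1 to 5 and wild-type replicates 1 and 3, Myc had an r of 0.85 with the list mean (exact permutation p = 0.00714, adjusted p = 0.0643 over 9 members) and a rho of 0.86 (exact p = 0.0238, adjusted p = 0.102). Mnt had an r of -0.80 (exact permutation p = 0.0317, adjusted p = 0.0952) and a rho of -0.93 (exact p = 0.00675, adjusted p = 0.0607). Neither passed, and the r without the 2 arrays farthest from the median was 0.72 for Myc and -0.60 for Mnt. Between the clusters, Myc ran from 8.68 to 9.45 in the 7 arrays and from 7.87 to 8.45 in the 5. The clusters overlapped for every other member. These clusters were found in the same data, and the share of all genes that separate them was not counted.

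**Figure D4:**
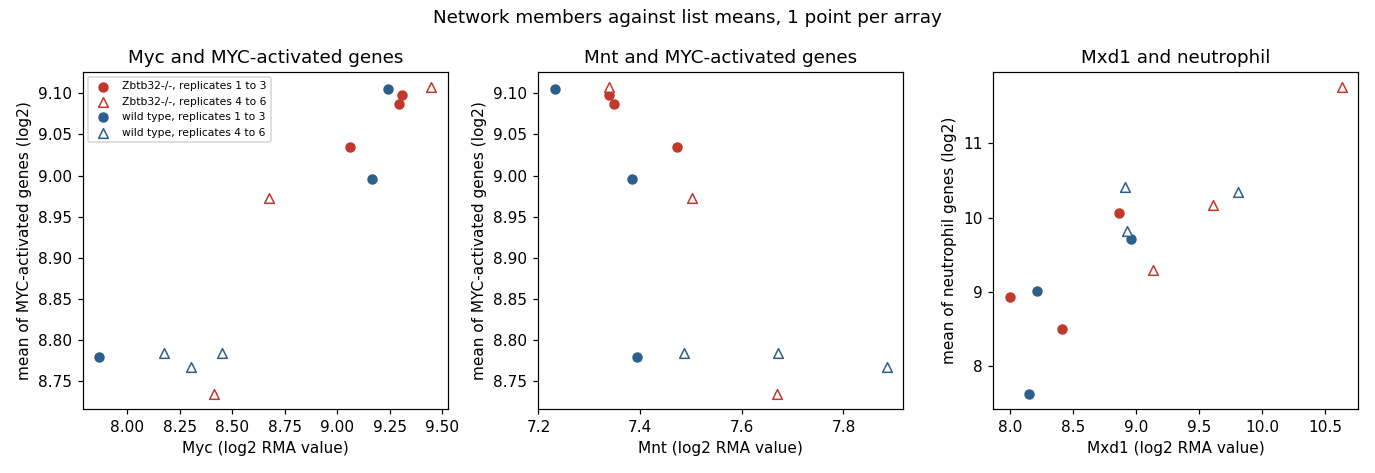
Myc (left) and Mnt (middle) against the mean of the MYC-activated genes and Mxd1 (right) against the mean of the neutrophil genes, in log2 units, 1 point per array, red for Zbtb32-/- and blue for wild type, filled circles for replicates 1 to 3 and open triangles for replicates 4 to 6. The list mean on the left has no array between 8.78 and 8.97, and on the right Zbtb32-/- replicate 6 is highest on both axes (10.63 and 11.75).

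Well expressed genes had a level of their own on each array. The mean over the 9887 genes above the median level ran from 8.09 to 8.20 in Zbtb32-/- arrays and from 7.97 to 8.23 in wild-type arrays. Of the 9 members 3 were related to it, Myc and Mxd4 in the same direction and Mnt in the opposite one. Myc followed it at an r of 0.85 (permutation p = 0.00061, adjusted p = 0.00549) and a rho of 0.80 (adjusted p = 0.0210). Mnt went against it at an r of -0.75 (permutation p = 0.00417, adjusted p = 0.0188) and a rho of -0.77 (adjusted p = 0.0210). Mxd4 followed it at an r of 0.70 (permutation p = 0.00664, adjusted p = 0.0199) and a rho of 0.71 (adjusted p = 0.0385). Without the 2 farthest arrays these r were 0.78, -0.50 and 0.61. Within replicates 4 to 6 they were 0.65, -0.76 and 0.63 and within replicates 1 to 3 they were 0.96, -0.46 and 0.36.

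With that array mean taken off every list mean, the MYC-activated genes no longer fell into clusters, and 72 relations could be tested. Myc then had an r of 0.73 with the MYC-activated genes (permutation p = 0.00495, adjusted p = 0.0579) and a rho of 0.87 (p = 0.00052, adjusted p = 0.0374). That r was 0.84 without wild-type replicates 2 and 6, 0.77 within replicates 4 to 6 and 0.83 within replicates 1 to 3. Mxd1 and the neutrophil genes gave an r of 0.87 (permutation p = 0.00033, adjusted p = 0.0238) and a rho of 0.77 (adjusted p = 0.106). By both r and rho 0 of 72 relations passed. The tests on the array mean, on relative lists and within clusters were chosen after the data were seen.

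Gene by gene, 71 of 77 MYC-activated genes had a positive r with Myc over the 12 arrays, with a median of 0.56. The median was 0.42 over 2959 genes of like level, 82.0% of them positive, and 0.07 over all genes tested. Those genes cover only the middle levels of the list, from 8.16 to 9.82, so its higher and lower genes have no match there. The part of level in the gap between 0.56 and 0.42 was not tested. These r share the same 12 arrays and their common levels, so the genes are not independent points. Nme1, a nucleoside diphosphate kinase gene, and Ccnd2, which encodes cyclin D2, had the highest r with Myc of this list, 0.90 and 0.88. They were chosen after their values were seen, and their means of 11.95 and 11.67 lie above those middle levels. With Mnt 70 of 77 genes had a negative r, with a median of -0.44, against -0.42 over genes of like level and -0.10 over all genes.

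**Figure D5:**
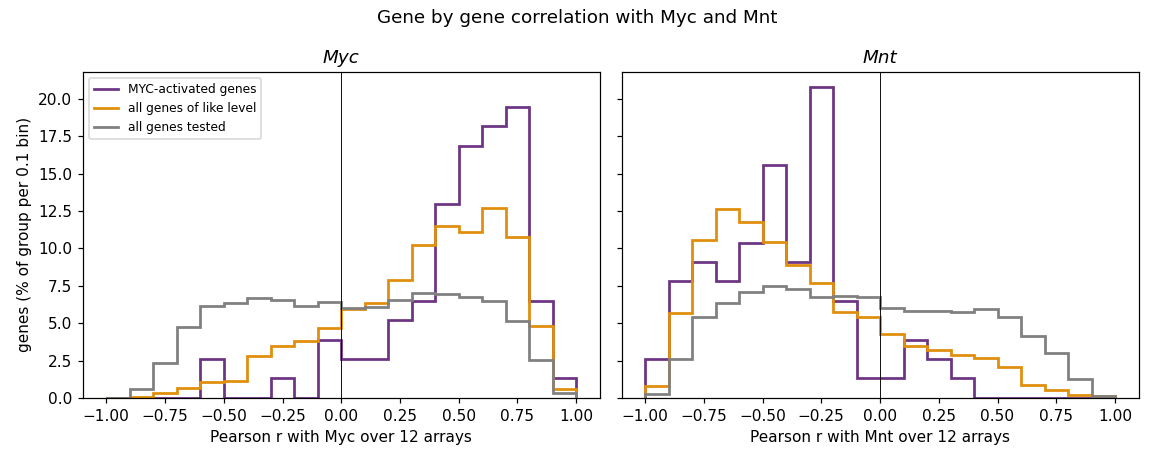
Distribution of the Pearson r of single genes with Myc (left) and Mnt (right) over the 12 arrays, as percent of genes per bin of 0.1, for the 77 MYC-activated genes (purple), genes of like level (orange) and all genes tested (grey). The purple line lies right of the orange one for Myc (medians 0.56 and 0.42), while for Mnt the medians are -0.44 and -0.42. The orange genes cover only the middle levels of the purple list.

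The promoter motif of the 4 printed members was common among MYC-activated genes. Of the 63 with a window 17 held CACGTG, or 27.0%. The share was 10.9% over the tested genes with a window and 8.09% over all genes with a window. Holding the motif did not go with a higher r. The median r with Myc was 0.44 for these 17 genes and 0.61 for the 46 without it, which is a description of one short window. Of the tested genes, 1291 held the motif, 10.9% of those with a window. Their median genotype difference was 0.04, against 0.01 for genes without it. Their median level was also higher, at 7.37 against 7.12, and the part of level in that difference was not tested. Between the replicate sets 6.20% of the genes with the motif passed, against 6.51% of those without.

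The 3 genes most like each member, by Pearson r over the 12 arrays among 14993 genes, are given as a description. Nearest to Myc were Med14, a subunit of the Mediator complex (r = 0.95), Pagr1a (0.95) and Vps37a (0.95). Nearest to Mxd1 were Atp8b4 (0.96), Lilra6, a leukocyte immunoglobulin-like receptor gene (0.96), and Trpm2, a cation channel gene (0.95). Nearest to Mxd4 were Vapa (0.97), Ythdc1, a reader of methylated RNA (0.96), and Tbp, the TATA-binding protein gene (0.91). Nearest to Mnt were Nyx (0.95), Creb5 (0.94) and Krtap5-4 (0.93), and nearest to Mlx were Caprin1 (0.95), Zfp846 (0.89) and Ro60 (0.87). For the remaining members the highest r belonged to Vstm2l, Bcl2l2 and Panx1 with Mycn (0.89 to 0.93), to Tmem140, Gpx3 and Ppic with Max (0.90 to 0.92), to Cox20, Cldn11 and Eva1a with Mxd3 (0.90 to 0.91) and to Marchf2, Utp4 and Lrrc28 with Mxi1 (0.86 to 0.92).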

How the data were processed

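The authors deposited log2 values, 1 per probe set and array, made by RMA; per the submitters' processing notes the program was Affymetrix Expression Console, and versions are not given in the sources used here. The RMA method subtracts background, gives the arrays a like distribution and summarises probes, which compresses low values and hides differences in total RNA. RNA was amplified before labelling, per the labels' protocols, which can widen the spread between arrays. Of 35556 probe sets, 21789 name 1 gene in the platform annotation, 1621 name several and 12146 carry no name here. Of the first, 21698 matched by Entrez identifier to the RefSeq table of GRCm38.p6, and 0 symbols changed. The deposited table names no genome build.

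The members and all gene lists were chosen with earlier results of these data known. The 15 lists hold 349 entries, of which 323 were measured. Each gene was represented by its brightest probe set naming no other gene, and genes at or below the 25th percentile (5.49) were left out. The test of genotype, Zbtb32-/- minus wild type, was that of limma 3.58.1 under R 4.3.3 (lmFit, eBayes with trend, Benjamini-Hochberg over 14993 genes, threshold 0.05). The same fit with genotype and replicate set gave the set difference, and their interaction was tested too. The limma fits were tested on simulated data, and the correlations only on random values set against a linear copy of themselves. Correlations, promoters and plots used Python 3.11.15 with pandas 2.3.3, scipy 1.17.1 and matplotlib 3.10.9.

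The text names the members, Zbtb32, all network relatives, the 2 genes of each other list with the smallest unadjusted p in the genotype comparison, for cell type lists also the 2 with the highest mean, and the 3 genes most like each member. The last skipped predicted genes, olfactory and vomeronasal receptors, small RNAs and antigen receptor segments. Of the lists for mitosis and cell types only genes that bear on a member are named. Prdm1, Nme1 and Ccnd2 are named outside these rules. Relations with 8 lists were planned, and the MYC-activated list was set apart because its mean split the arrays. Genes of like level were set beside the lists after the data were seen. The alternatives were quantile normalization again, median centring, no filter and a stricter one, the mean over probe sets, fits with no trend or with robust variance, array weights, a block for replicate number, markers of other cells as a covariate, each replicate set alone, and leaving out arrays.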

Additional observations from a re-analysis of the deposited data

Results flagged for a closer look

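In 46 groups of 6 arrays tested with Dixon's criterion, 3 held an array far from the others, and chance flags about 1 group in 20. Max in Zbtb32-/- replicate 6 was 9.15, with the next Zbtb32-/- array at 8.44 and the lowest at 8.06. The mean of the MYC-activated genes in the same array was 8.74, with the next Zbtb32-/- array at 8.97 and the highest at 9.11. Mycn in wild-type replicate 5 was 6.01, with the next wild-type array at 6.25 and the highest at 6.38.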

How the results depend on the processing

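With 12 arrays and values without detection calls, differences of low transcripts are limited by RMA, and 0 genotype calls do not show equal levels. Over all alternatives 0 members passed between the genotypes. Myc was positive in all of them, from 0.24 (without wild-type replicates 2 and 6) to 0.54 (replicates 4 to 6 alone). The lower end was fixed in part beforehand, since those wild-type arrays had the lowest Myc. On leaving out 1 array the Myc difference ran from 0.37 to 0.64. The labels give no pairing by replicate number, and the numbers did not meet the rule that every same-numbered pair correlates above 0.1: they correlated at 0.468, 0.019, 0.220, 0.034, 0.135 and 0.156, and 2 of 6 correlated best with their own number. With the replicate block the Myc difference was 0.50 (interval 0.0084 to 0.988, limma unadjusted p = 0.0469, adjusted p = 0.792). Its unadjusted limma p was also under 0.05 on leaving out Zbtb32-/- replicate 6 (0.0275) or, of the wild-type arrays, replicate 1 (0.0278) or 3 (0.0222), with adjusted p of 0.522 to 0.728. Of all genes 0 passed with the block, and 914 had an unadjusted p under 0.05.

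The genotype differences of the other members were small and changed sign in places, and the cause was not tested. Mycn was 0.016 after quantile normalization again, 0.010 with median centring, 0.029 with array weights, 0.045 over replicates 1 to 3 and 0.030 without wild-type replicates 2 and 6. Over replicates 1 to 3 Mxd1 was -0.014, Mxd4 -0.049, Mxi1 -0.0021 and Mnt 0.051. Over replicates 4 to 6 Max was 0.037 and Mlx -0.15. Mxd1 was -0.016 with array weights, Mxd4 -0.045 without wild-type replicates 2 and 6, and Mlx -0.0022 after quantile normalization again. On leaving out 1 array Mycn ran from -0.076 to 0.046, Max from -0.25 to 0.0022, Mxd1 from -0.022 to 0.50, Mxd4 from -0.044 to 0.22, Mxi1 from -0.044 to 0.070, Mnt from -0.12 to 0.012 and Mlx from -0.0015 to 0.16, while Mxd3 stayed positive (0.060 to 0.19).

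Genes past the genotype test were 1 over replicates 4 to 6 alone and 0 on leaving out any array. Between the replicate sets 977 genes passed, 1579 with no filter, where more genes were tested, 27 with markers of other cells as a covariate and 240 to 1193 on leaving out 1 array, the lowest without wild-type replicate 1. Members past the set test were 0 with that covariate and 0 to 1 on leaving out 1 array, and Max between the sets was -0.032 with the covariate. The interaction passed for 1 gene with array weights and for 0 to 1 on leaving out 1 array. Relative to the array mean, a setting added after the data were seen, Myc with mitosis genes gave an r of 0.73 (adjusted p = 0.0717) and Mnt with plasma cell genes -0.69 (adjusted p = 0.0784), the last with 0.41 over replicates 1 to 3. With list means as they stand, Mnt with plasma cell genes gave 0.070 over replicates 1 to 3. Each member has 1 probe set, so other probe sets could not be tried, and the stricter filter left out Mycn.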
